A study of Mus musculus with 20 samples.

Results

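The genes described here are 9 genes of the B cell lineage, Ebf1, Pax5, Ms4a1, Cd79a, Cd79b, Fcer2a, Fcrla, Spib and Btk, measured in natural killer (NK) cells, cytotoxic lymphocytes of innate immunity, that had been isolated from mouse spleen. They were taken by gene name out of 27827 names on the array, and every probe carrying 1 of the 9 names was used, which gave 11 of the 41174 probes on the array. All 11 passed the filter on dim probes, as did 25026 probes in all. The samples were 20 single-colour Agilent arrays, 1 per mouse, from male C57BL/6 mice whose age is not given in the sources used here. By gavage, 5 mice received ptaquiloside at 5.3 mg/kg, 5 received selenium at 1.3 mg/kg, 5 received both compounds at these doses and 5 control mice received water, each once a day over 14 days. Ptaquiloside is the toxic glucoside of bracken fern and selenium is an essential trace element. The NK cells were obtained by magnetic removal of other cells and were not bound themselves, so cells that escaped removal stay in the isolate, and no count of B cells was among the data used here.

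B cells are the lymphocytes that make antibodies, and the spleen is rich in them. Ebf1 and Pax5 are the transcription factors that set and hold B cell identity, and Spib is an ETS-family factor of B cells and plasmacytoid dendritic cells. Cd79a and Cd79b are the signalling chains of the B cell antigen receptor, and Btk is a kinase downstream of it that myeloid cells also use. Ms4a1 encodes CD20, Fcer2a the low-affinity IgE receptor CD23 and Fcrla an intracellular Fc receptor-like protein, all known from mature B cells.

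Ebf1 and Ms4a1 were the genes with 2 probes, and results differed between the probes of Ebf1, so the first 30 of the 60 bases of these probes are shown, 5′ to 3′, with positions on mm9 (NCBI37) as in the scanner files. No gene model of that build was used, so exons and untranslated regions are not assigned.
Ebf1 A_51_P188054, chr11:44818365-44818424, plus strand: caataactgcagatttttaaacaaaatcac
Ebf1 A_52_P531838, chr11:44462618-44462677, plus strand: acaataagctaatagcagtctagattccat
Ms4a1 A_51_P277683, chr19:11325827-11325886, minus strand: taatggtttttccgcatttcctccatcagc
Ms4a1 A_52_P483336, chr19:11325367-11325426, minus strand: gctgtgctttgagattctttccaaatggca
The longest run of bases shared by the 2 whole Ebf1 probes was 7 bases, and their starts lay 355747 bases apart. The first was designed on the RefSeq transcript and the second on a full-length cDNA that the array annotation lists as unclassifiable. The Ms4a1 probes shared at most 5 bases in a row and lay 460 bases apart. The probe of Btk (chrX:131077061-131077120) was printed on 10 spots of each array, which were averaged, and the other 10 probes on 1 spot. Cd79a (chr7:25684353-25684610) and Pax5 (chr4:44550354-44582908) were placed on stretches longer than a probe, and the probes of Cd79b (chr11:106172780-106172839), Fcer2a (chr8:3682021-3682080), Fcrla (chr1:172848103-172848162) and Spib (chr7:51781646-51781705) on stretches of 60 bases.

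Because most of the genes varied together across arrays, the 250 bases before the start of Cd79a and of Fcrla are printed from RefSeq (GRCm38.p6). Cd79a is a classical target of B cell transcription factors, and Fcrla was the gene closest to the mean of the others. Capitals mark GAGGAA, the core that PU.1 and SPIB bind, found here on the opposite strand.
Cd79a, chr7:24897247-24897496, plus strand: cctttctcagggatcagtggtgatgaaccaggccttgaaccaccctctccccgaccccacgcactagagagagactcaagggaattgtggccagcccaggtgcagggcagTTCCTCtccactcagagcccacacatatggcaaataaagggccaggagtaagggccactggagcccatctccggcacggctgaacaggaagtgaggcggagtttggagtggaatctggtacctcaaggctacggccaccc
Fcrla, chr1:170927584-170927833, minus strand: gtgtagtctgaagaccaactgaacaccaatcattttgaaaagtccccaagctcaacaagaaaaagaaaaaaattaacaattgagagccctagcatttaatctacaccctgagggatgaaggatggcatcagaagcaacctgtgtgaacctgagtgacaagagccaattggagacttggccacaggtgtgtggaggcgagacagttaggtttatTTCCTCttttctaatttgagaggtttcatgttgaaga
Searched on both strands, GAGGAA was in 3 of the 10 windows that 7 of the 9 genes had in the reference table, those of Cd79a, Fcrla and Ebf1, and in 23.3% of all 32851 windows. The palindromic EBF1 motif was in 0 of the 10 windows and 0.779% of all, and the octamer ATTTGCAT in 0 of the 10 and 1.6% of all. A match describes the letters only, and the 3 motifs were searched separately. The EBF1 motif was searched only in its fully palindromic form, so sites that depart from it were not counted. Its 0 matches therefore do not show that these windows, that of Cd79a among them, lack an EBF1 site.

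All 19 NK markers were well above background on at least 19 of 20 arrays, Ncr1, Klrb1c and Nkg7 on 20. Some B and T cell markers were well above background on 20 arrays too, so detection alone does not give the purity of the isolates. The array of ptaquiloside mouse 4 was dim. The 75th percentile of its signal was 10.5 scanner units, against 45.5 to 133 on the other 19 arrays, 36.3% of its spots were well above background, against 51.7% to 60.8%, and it correlated with the other arrays at 0.625 to 0.755, whereas those correlated with each other at 0.936 to 0.990. Results are therefore given with and without it. Each of the 5 slides carried the 4 mice of 1 number, 1 per group, and each group kept 1 position on the slides, so slide position and treatment cannot be told apart. Signals are log2 values minus the 75th percentile of the array, which is at 0 on this scale, and levels are not set against each other between probes.

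B cell transcripts were present in the NK isolates. The probes of Cd79a, Cd79b, Spib and both of Ms4a1 were well above background on 20 of 20 arrays, Fcrla and Btk on 19, Fcer2a on 16, the first Ebf1 probe on 15, Pax5 on 13 and the second Ebf1 probe on 6. How much of this signal was left varied between mice, by an amount that differed between genes. Among the probes well above background on all 19 arrays other than the dim one, the lowest and highest array differed 2.15-fold for Btk, 4.72-fold for Cd79a, 6.83-fold for Spib, 7.58-fold for Cd79b, 10.9-fold for Fcrla and 11.4-fold for the brighter Ms4a1 probe. In bulk RNA, fewer B cells and less of these transcripts per cell cannot be told apart.

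A B cell score, the mean log2 signal of the 9 genes on the brightest probe of each, gives the signal per array. It was 0.36, -0.70, 0.18, -0.85 and -1.54 in ptaquiloside mice 1 to 5. In selenium mice 1 to 5 it was -0.93, -0.54, -0.27, -1.46 and -1.16. With both compounds it was 0.18, 0.25, 0.98, -1.45 and -0.04, and in control mice 0.19, -0.05, -0.39, 0.09 and 0.88. All 5 selenium arrays were below 0, whereas the other groups had arrays on both sides. The lowest arrays were ptaquiloside mouse 5, selenium mouse 4, mouse 4 given both compounds and selenium mouse 5, and the highest were mouse 3 given both compounds and control mouse 5. Ptaquiloside mouse 5 and selenium mouse 5 were among the 5 lowest arrays for 8 of 9 genes. Mouse 4 given both compounds was so for 7 and selenium mouse 4 for 6. Control mouse 5 was among the 5 highest for 9 of 9 and mouse 3 given both compounds for 8. The score is the mean of these same genes, so the counts are no separate sign that the genes agree. Ebf1, Pax5 and Fcer2a were not well above background on selenium mouse 4 and mouse 4 given both compounds, nor Ebf1 and Fcer2a on ptaquiloside mouse 5. Pax5 was well above background on 1 of 5 selenium arrays. How low these scores lie is therefore not fully measured. On the dim array, ptaquiloside mouse 4, Pax5 and Cd79a were the highest of all arrays after scaling, which raised its score.

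**Figure D1:**
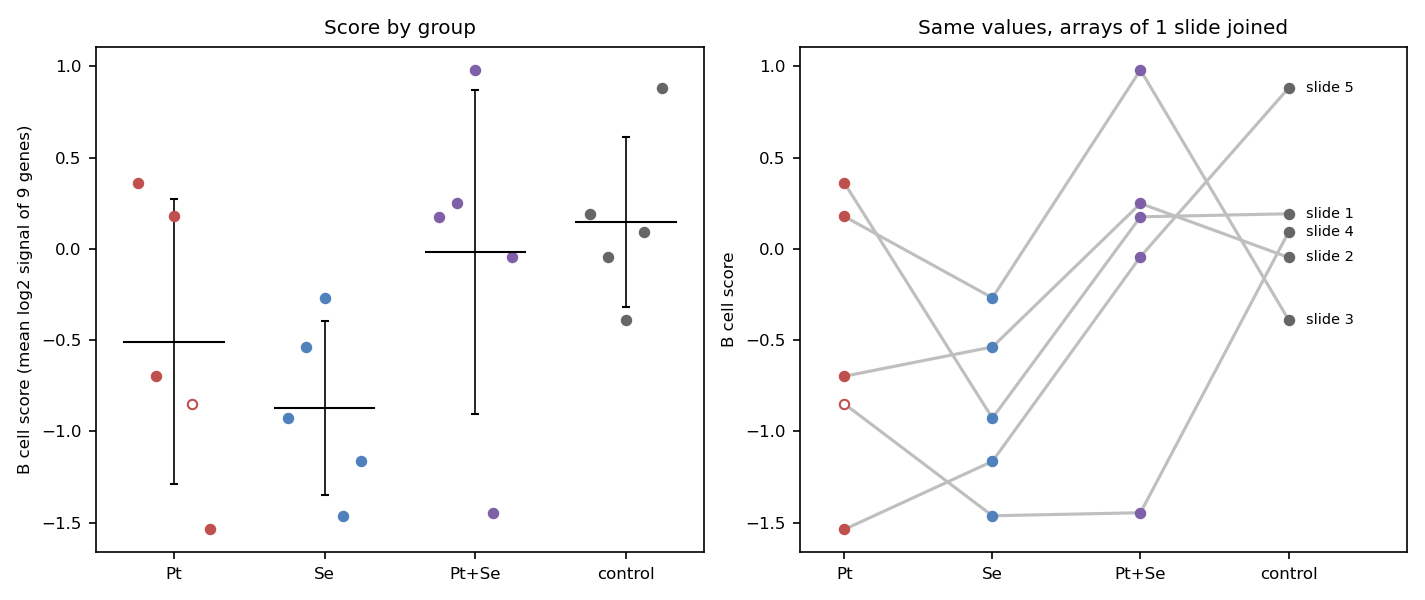
B cell score (mean log2 signal of 9 genes, 0 is the 75th percentile of the array) of each of 20 arrays by group, Pt for ptaquiloside and Se for selenium. Left, bars are the mean and SD of 5 mice; right, grey lines join the 4 arrays of a slide and the open point is the dim array. All selenium points lie below 0, and on each slide the score with both compounds is above that with selenium alone. Some values of Ebf1, Pax5 and Fcer2a in the score were not well above background.

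The group means of the score were -0.51 ± 0.78 with ptaquiloside, -0.87 ± 0.48 with selenium, -0.02 ± 0.89 with both compounds and 0.15 ± 0.47 in control (SD, n = 5 each). Without the dim array ptaquiloside stood at -0.42 ± 0.87 (SD, n = 4). Ptaquiloside minus control was -0.65 (-0.57 without the dim array), with slide values of -2.42 to 0.57 and 3 of 5 slides below 0. Selenium minus control was -1.02, with slide values of -2.04 to 0.12 and 4 of 5 slides below 0. With both compounds the mean differed from control by -0.16, slide values ran from -1.54 to 1.37, and the difference was 0.19 without mouse 4 of that group. The difference of both compounds from selenium alone was 0.85 and above 0 on 5 of 5 slides, at 0.02 on slide 4 and 0.79 to 1.25 on the others. Against ptaquiloside alone it was 0.49 and above 0 on 3 of 5 slides. This difference was 0.41 without the dim array and 0.85 without mouse 4 given both compounds. The interaction, which asks how far the effect of the second compound differs in the presence of the first, was 1.51 and above 0 on 5 of 5 slides, between 0.68 and 3.54. It was 1.42 without the dim array. Because the genes were chosen with results of these arrays known, the score has no p-value here. Values of Ebf1, Pax5 and Fcer2a that were not well above background entered the score. Its group differences and its interaction are therefore no measured folds.

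The transcription factors differed most between groups for Ebf1. Its first probe was at -1.57, -3.23, -1.29, -3.11 and -4.44 in ptaquiloside mice, at -2.97, -3.74, -2.42, -5.57 and -3.64 in selenium mice, at -1.57, -1.75, -0.48, -4.29 and -1.73 with both compounds and at -1.37, -2.40, -2.36, -1.82 and -0.37 in control mice. All selenium arrays were below all control arrays, though the highest selenium array (-2.42) and the lowest control array (-2.40) nearly met. The log2 difference of selenium from control was -2.00 ± 0.71 (SE), with limma's adjusted p = 1.00 over all probes. It is no measured fold, since selenium mice 2 and 4 were not well above background on this probe, and it was -0.40 with normexp background correction. Selenium arrays were lower than the control array of the same slide on 5 of 5 slides. The second Ebf1 probe was well above background on 0 of 5 ptaquiloside, 0 of 5 selenium, 3 of 5 combined and 3 of 5 control arrays. Its measured means were -4.72 with ptaquiloside, -6.09 with selenium, -4.04 with both compounds and -3.94 in control. No firm bound follows from it, since arrays not well above background entered the control and combined means. With selenium values raised to at least the lowest level well above background on each array, selenium was 1.2-fold below control. The group given both compounds was then 1.12-fold above selenium. These raised values were not tested. Limma's adjusted p was 1.00 in both comparisons for the values before raising. In other settings the fitted differences were as small as -0.17 and 0.08. No fold is given for ptaquiloside, where the same calculation gave a value under 1.

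Pax5, the other identity factor, was low and close to background. Its mean was -2.92 ± 1.61 with ptaquiloside, -4.54 ± 0.48 with selenium, -3.53 ± 0.61 with both compounds and -3.55 ± 0.66 in control (SD, n = 5 each). The probe was well above background on 1 of 5 selenium arrays and on 4 of 5 arrays of each other group. After scaling the dim array at -0.22 was the highest of all 20, though its unscaled signal of 9.01 lay inside the range of 2.78 to 16.8. Without that array the ptaquiloside mean was -3.59 ± 0.66 (SD, n = 4). The ptaquiloside difference from control was 0.64 ± 0.57 (SE, adjusted p = 0.80), and -0.04 when that array was left out. With 4 of 5 selenium arrays not above background, the fitted difference of selenium from control, -0.99 ± 0.57 (SE, adjusted p = 1.00), has no measured lower end, and it was -0.086 with normexp. Spib was at 2.24, 1.14, 1.73, 0.06 and -0.19 in ptaquiloside mice, at 1.02, 1.71, 1.04, 0.78 and 0.56 in selenium mice, at 2.08, 1.91, 2.59, 0.43 and 0.41 with both compounds and at 2.08, 1.84, 1.48, 1.69 and 2.15 in control mice. Control mice lay within a narrow band. In each treated group, selenium alone among them, mice 4 and 5 were the lowest, and ptaquiloside mouse 4 is the dim array. The difference was -0.85 ± 0.46 (SE) for ptaquiloside and -0.83 ± 0.46 (SE) for selenium against control (adjusted p = 0.80 and 1.00).

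Of the receptor chains, Cd79b was at 4.47, 2.66, 3.64, -0.28 and 1.82 with ptaquiloside, at 2.59, 3.35, 2.91, 2.12 and 2.54 with selenium, at 3.19, 3.32, 4.71, 1.79 and 3.86 with both compounds and at 3.57, 3.32, 3.01, 3.92 and 4.66 in control mice. The selenium arrays kept close together below most control arrays, with a difference of -0.99 ± 0.67 (SE, adjusted p = 1.00). The ptaquiloside difference of -1.23 ± 0.67 (SE, adjusted p = 0.80) held the dim array, the lowest of all, and was -0.55 without it. Cd79a was highest of all on that array after scaling, at -0.10, though its unscaled signal there, 9.79, was the lowest of all arrays. Its means were -2.09 ± 1.20 with ptaquiloside, -2.78 ± 0.32 with selenium, -2.03 ± 0.65 with both compounds and -2.18 ± 0.58 in control (SD, n = 5 each), and the ptaquiloside difference was 0.10 with the dim array and -0.40 without it.

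Btk, the kinase, had the tightest groups. It was at 0.66, 0.99, 0.68, -0.78 and 0.81 with ptaquiloside, at 0.97, 1.02, 1.13, 0.87 and 1.07 with selenium, at 1.23, 1.12, 1.68, 0.58 and 1.5 with both compounds and at 1.11, 1.33, 1.13, 1.40 and 1.68 in control mice. All ptaquiloside arrays were below all control arrays, as for 0.0884% of all probes. Leaving out the dim array cannot undo this, and 0.289% of all probes then had such groups. The difference was -0.86 ± 0.28 (SE, unadjusted p = 0.0067, adjusted p = 0.80), and -0.54 without the dim array (adjusted p = 1.00), below 0 on 5 of 5 slides. Selenium differed from control by -0.32 ± 0.28 (SE, adjusted p = 1.00).

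Among the surface and Fc receptor genes, both Ms4a1 probes gave nearly the same picture, with r = 0.979 between them over 19 arrays, whereas r was 0.840 for the Ebf1 probes. The brighter Ms4a1 probe was at 3.34, 1.90, 2.51, 1.37 and 0.14 with ptaquiloside, at 2.06, 2.55, 2.70, 0.46 and 0.84 with selenium, at 3.11, 3.31, 3.66, 0.66 and 2.79 with both compounds and at 3.02, 2.92, 2.55, 2.36 and 3.44 in control mice. Every group but control held at least 1 array below 1, and the groups overlapped. The differences were -1.0 ± 0.60 (SE) for ptaquiloside and -1.14 ± 0.60 (SE) for selenium against control (adjusted p = 0.80 and 1.00). Fcer2a averaged -2.05 ± 1.32 with ptaquiloside, -2.89 ± 0.98 with selenium, -1.84 ± 1.43 with both compounds and -1.66 ± 0.76 in control (SD, n = 5 each). Fcrla averaged -0.59 ± 1.76 with ptaquiloside, -0.43 ± 0.56 with selenium, 0.43 ± 1.22 with both compounds and 0.65 ± 0.61 in control (SD, n = 5 each). Fcer2a was not well above background on ptaquiloside mice 4 and 5, selenium mouse 4 and mouse 4 given both compounds, and Fcrla was not on the dim array. The Fcrla difference of ptaquiloside from control was -1.23 ± 0.68 (SE, adjusted p = 0.80), and -0.65 without the dim array.

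**Figure D2:**
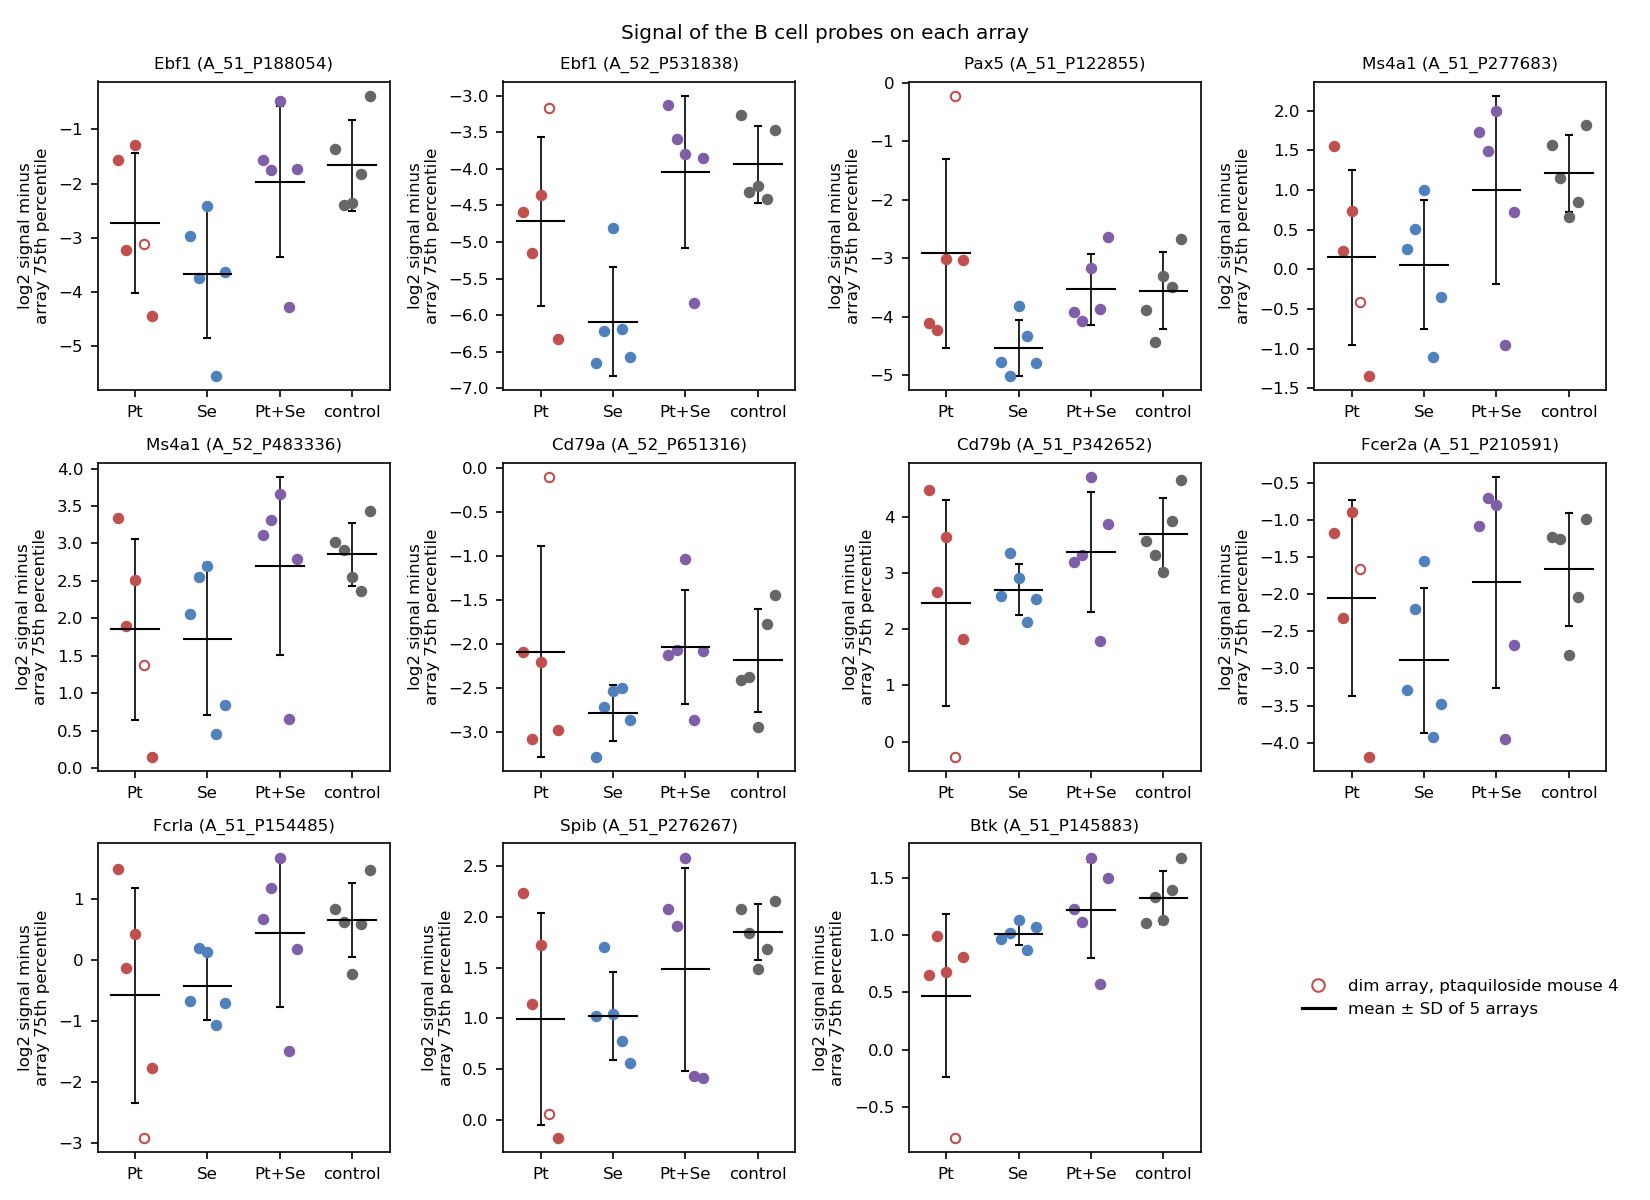
Log2 signal minus the 75th percentile of the array for the 11 probes on 20 arrays, by group (Pt, ptaquiloside; Se, selenium; Pt+Se, both; control). Lines and bars are the mean and SD of 5 mice and the open point is the dim array. Selenium arrays lie below all control arrays for the first Ebf1 probe, with 2 of the 5 selenium arrays not well above background, and ptaquiloside arrays below all control arrays for Btk.

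The first comparison asked what ptaquiloside alone did. With limma's test across all probes, 0 of the 11 B cell probes passed an adjusted p of 0.05, as did 0% of the 25026 probes tested. As counts of signs, 9 of 11 probes had a lower mean with ptaquiloside than in control, where 51.9% of all probes did, and without the dim array 11 of 11, where 52% did. The median log2 difference of the 11 probes was -0.86, against -0.02 for all probes tested, and -0.62 without the dim array. Only Btk had an unadjusted p under 0.05, as did 0.755% of all probes in this direction, and only Btk had groups that did not overlap, as did 0.0884% of the probes. With the slide as a block 5 of 11 had an unadjusted p under 0.05, against 1.11% of all probes, and the smallest adjusted p was 0.671. Leaving out 1 array at a time moved the median from -1.16 without ptaquiloside mouse 1 to -0.58 without ptaquiloside mouse 5. Without mouse 1, 6 of 11 had an unadjusted p under 0.05 (3.1% of all probes in either direction). Without mouse 5, 1 had (4.36% of all), and without ptaquiloside mouse 3 there were 3 (2.22% of all). With normexp the median was -0.31.

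Selenium alone was below control for all 11 probes, where 50.4% of all probes were lower. The median difference was -1.08, against 0.00 for all probes tested, and it ran from -1.23 to -0.86 when 1 array at a time was left out. With normexp it was -0.40, and 0 of 11 probes had an unadjusted p under 0.05 (0.352% of all in either direction). No B cell probe was called (0 of 11, and 0% of all probes). Both Ebf1 probes had an unadjusted p under 0.05, as did 0.739% of all probes in this direction, and groups that did not overlap, as did 0.317%. For the second of them this sets values at background against each other, since no selenium array was well above background. With the slide as a block 5 of 11 reached that unadjusted p, against 1.21% of all probes. With both compounds the difference from control was smaller, with a median of -0.17 and 9 of 11 probes lower, where 47.9% of all were, 0 of 11 called (0% of all) and 0 of 11 at an unadjusted p under 0.05 (0.156% of all). Without mouse 4 of that group 1 of 11 was lower and the median was 0.28, and without its mouse 3 all 11 were lower.

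The 2 comparisons with both compounds ask what adding the second compound did, and they share the group given both. Against ptaquiloside alone 10 of 11 probes were higher with both compounds, where 51.5% of all probes were, with a median difference of 0.75 (0.27 with normexp), and without the dim array 11 of 11 were, where 52.3% of all were, with a median of 0.43. Called probes numbered 0 of 11 (0% of all), and Btk (0.75 ± 0.28 SE, adjusted p = 0.825) alone had an unadjusted p under 0.05, as did 1.33% of all, and 1 probe did with the slide as a block (2.23% of all). The median was 0.34 without ptaquiloside mouse 5, with 8 of 11 higher. It was 1.12 without mouse 4 given both compounds, with 5 of 11 at an unadjusted p under 0.05 (1.8% of all in either direction). Against selenium alone all 11 probes were higher with both compounds, where 51.3% were, with a median of 0.94 (0.35 with normexp), 0 of 11 called (0% of all) and both Ebf1 probes, the second with no selenium array above background, at an unadjusted p under 0.05 (0.424% of all), and 4 of 11 did with the slide as a block (0.719% of all). The first Ebf1 probe was higher by 1.70 ± 0.71 (SE, adjusted p = 1.00), on 5 of 5 slides.

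In the interaction all 11 probes were positive, where 53.4% of all probes were (11 of 11 and 50.9% without the dim array), with a median of 1.90, against 0.04 for all probes tested. A positive value means that the signal with both compounds was above what the sum of both single differences gives. The adjusted test called 0 of 11 probes (0% of all), with a smallest adjusted p of 0.997. At an unadjusted p under 0.05 there were 6 of 11, both probes of Ebf1 and of Ms4a1, Fcrla and Btk, where 0.843% of all probes were in this direction. The second Ebf1 probe was not well above background on any array of either single compound, so its interaction is not a measured one, and it was 0.15 with normexp. Since these genes vary together and share arrays, the 6 are not independent. With the slide as a block there were 8 (1.29% of all), without the dim array 6 (1.59% of all) and with both 10 (2.69% of all), in each case with 0 calls. Leaving out 1 array at a time gave 4 to 9, the lowest without control mouse 5, ptaquiloside mouse 5, mouse 2 or 3 given both compounds or selenium mouse 4 or 5, and the highest without mouse 4 given both compounds. Of all probes, in either direction, 1.05% to 1.98% reached that p in the fits with 4 and 1.27% in the fit with 9. With normexp background correction at an offset of 50 there were 3 (0.348% of all in either direction), with a median of 0.69. The first Ebf1 probe had an interaction of 2.77 ± 1.00 (SE), Fcrla one of 2.10 ± 0.96 (SE), the brighter Ms4a1 probe one of 1.99 ± 0.85 (SE) and Btk one of 1.06 ± 0.40 (SE). With the dim array left out these were 2.67, 1.51, 1.87 and 0.75.

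**Figure D3:**
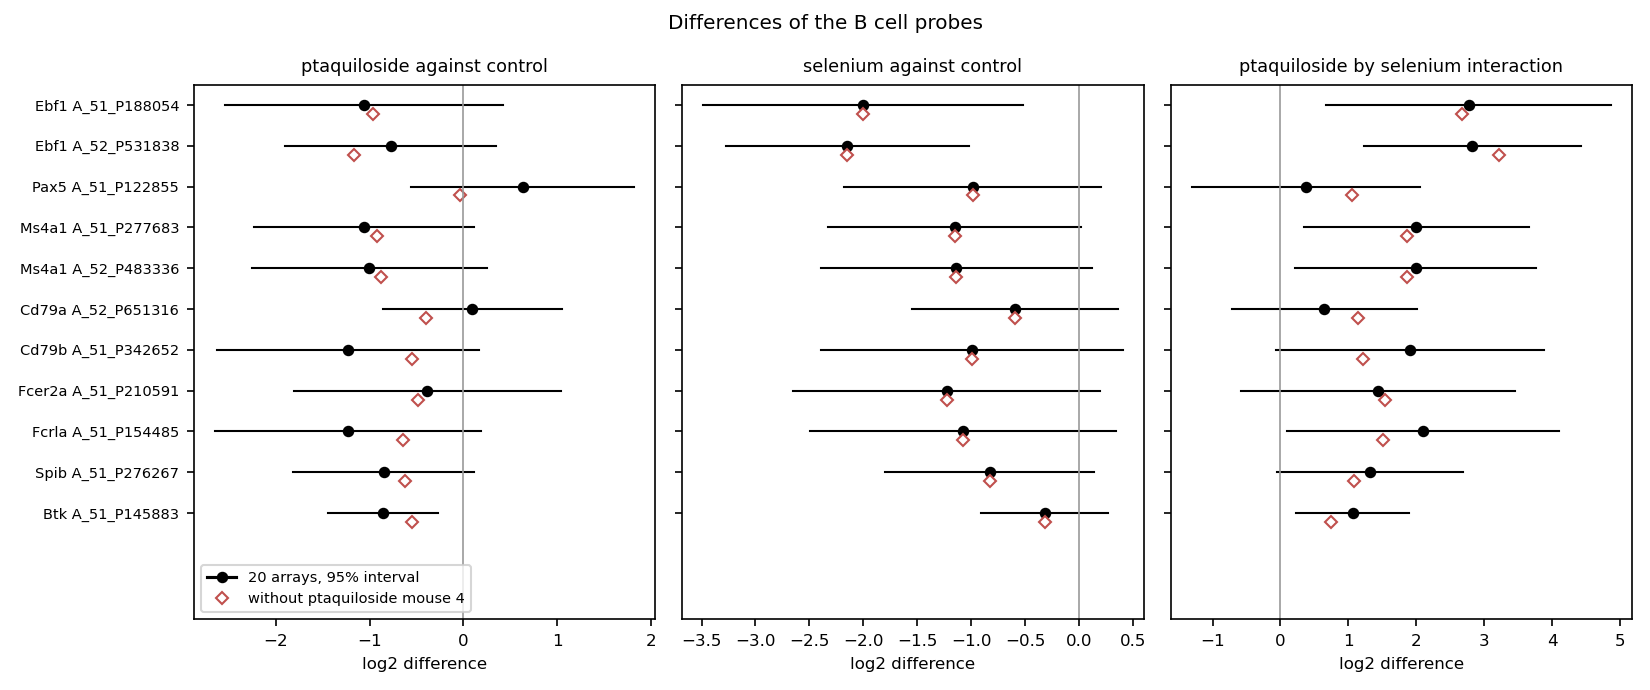
Log2 differences of the 11 probes for ptaquiloside against control, selenium against control and the interaction (x axes, log2). Points and lines are the estimate and its 95% interval over 20 arrays, unadjusted for the number of probes, and diamonds the estimate without the dim array. The second Ebf1 probe was not well above background on any ptaquiloside or selenium array. Pax5 and Cd79a are the probes whose ptaquiloside difference is above 0 with the dim array and below 0 without it.

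Most of the 9 genes varied together from mouse to mouse, and Pax5 followed the others least. Over the 19 arrays without the dim one, the 36 pairs of genes correlated at 0.01 to 0.94 with a median of 0.71. With group means removed the median was 0.64 and the lowest -0.27, and 4 pairs, all with Pax5, were below 0. With slide means removed the median was 0.84. Over all 20 arrays the median was 0.54 and 7 pairs were below 0. Correlation with the mean of the other 8 genes was highest for Fcrla (0.954), Ebf1 (0.930), Cd79b (0.922) and Ms4a1 (0.918), and lowest for Btk (0.589) and Pax5 (0.316). All these points share array scaling and depth and are given as description.

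Cd79a and Cd79b, whose products pair in the receptor, were tested as a pair, the only one tested. Over 20 arrays Pearson's r was -0.0081 (permutation p = 0.973) and Spearman's rho 0.555 (permutation p = 0.012). Without the dim array r was 0.830 (permutation p = 1e-05, the smallest that 100000 permutations can give) and rho 0.814 (permutation p = 4e-05). The permutations moved arrays freely across groups and slides. Arrays of a slide were correlated, so these p-values may be too small. When the 2 arrays farthest from the median of Cd79a were also left out, mouse 3 given both compounds and control mouse 5, r was 0.732. Over all 20 arrays the 2 farthest were the dim array and mouse 3 given both compounds, and r without them was 0.794. Adjusted over the 5 settings run, the p of r was 0.981 with all arrays and 5e-05 without the dim one.

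Of 17065 other genes ranked by their correlation with the B cell score over 19 arrays, 20 were above 0.9 and the median was -0.02. Among the 10 highest were Scd1 (0.966), an enzyme of fatty acid desaturation, Ccr6 (0.954) and Cxcr5 (0.944), chemokine receptors, Faim3 (0.951), the Fc receptor for IgM, Fam69a (0.945), Ralgps2 (0.942), Fcrl1 (0.936), Fam167a (0.931) and 9630023C09Rik (0.914). These are ranks in the same arrays and no p-value is attached.

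Lists of other B cell genes were read beside the 9, and limma's adjusted test called 0 genes in every list and comparison. The lists held 56 tested genes of 59. Of 14 tested surface and survival receptors 14 had a lower mean with ptaquiloside than in control (median -0.46), 12 with selenium (median -0.52) and 13 had a positive interaction (median 1.06), where the medians over all 17212 genes were 0.00, 0.02 and 0.02. Of all genes, 50.4% had a lower mean with ptaquiloside, 47% with selenium and 48.5% a negative interaction. The difference of selenium from control was -0.90 for Fcrl1 and -0.79 for Cd180, a Toll-like receptor homologue of B cells. With the dim array left out 11 of 14 had a lower mean with ptaquiloside (median -0.21) and 12 a positive interaction (median 0.65). Of 10 genes of MHC class II presentation, which dendritic cells share, 10 had a lower mean with ptaquiloside (median -0.45), 10 with selenium (median -0.41) and 10 a positive interaction (median 0.88). Their differences of selenium from control were -1.02 for H2-DMb2, -0.74 for H2-Ob, -0.54 for Ciita, the class II transactivator, and -0.42 for H2-Eb1. Without the dim array their ptaquiloside median was -0.15 and their interaction median 0.49.

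The receptor and co-receptor list, without the 2 chains above, had 9 of 9 genes with a lower mean with ptaquiloside (median -0.36), 7 of 9 without the dim array (median -0.11), and 7 of 9 with selenium (median -0.39). Selenium minus control was -0.50 for Cd22, an inhibitory co-receptor, and -0.46 for Fcgr2b, the inhibitory Fc receptor of B cells. Of 10 kinases and adaptors 9 had a lower mean with ptaquiloside (median -0.55, and -0.13 without the dim array) and 8 with selenium (median -0.12). Selenium minus control was -0.80 for Bank1, an adaptor, -0.83 for the kinase Blk and 0.13 for Ptpn6, a phosphatase that NK cells also express. The 13 other transcription factors had medians of -0.18 with ptaquiloside, 0.16 without the dim array and -0.20 with selenium. Lower means were seen in 9, 6 and 8 of the 13 in turn. Among these factors Mef2c differed by -0.40, Id3 by -0.74 and Spi1, which encodes PU.1, by -0.20 with selenium. The interaction median was 0.15 for the transcription factors, with 10 of 13 positive. It was 0.41 for the receptor list (8 of 9 positive) and 0.64 for the kinases and adaptors (9 of 10 positive). Without the dim array the last 2 medians were 0.31 (6 of 9 positive) and 0.13 (8 of 10 positive).

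Markers of other cells were read beside these values. The mean score of 12 T cell markers, of which Cd3e, Cd3d and Cd4 were well above background on 20 arrays, was -1.13 to -0.14 with ptaquiloside, -1.14 to -0.87 with selenium, -1.09 to 0.38 with both compounds and -0.91 to 0.23 in control. All 12 had a lower mean with selenium than in control (median -0.36), and the score correlated with the B cell score at r = 0.842 over 19 arrays. The NK score was 3.21 to 5.10 with ptaquiloside, 4.69 to 5.36 with selenium, 4.35 to 4.98 with both compounds and 4.39 to 5.13 in control, with r = -0.307, and the lowest value was that of the dim array. Plasma cell markers (r = 0.319), plasmacytoid dendritic cell markers (0.397), dendritic cell markers (-0.0085), macrophage and monocyte markers (0.246), neutrophil markers (0.200), erythroid markers (0.435) and platelet markers (-0.115) followed the B cell score less closely. Medians of selenium against control were 0.18 for plasma cells, -0.23 for plasmacytoid dendritic cells, 0.03 for dendritic cells, -0.40 for macrophages and monocytes, 0.52 for neutrophils, 0.08 for erythroid cells and 0.22 for platelets. The part of carried-over cells in the differences between groups was not tested.

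**Figure D4:**
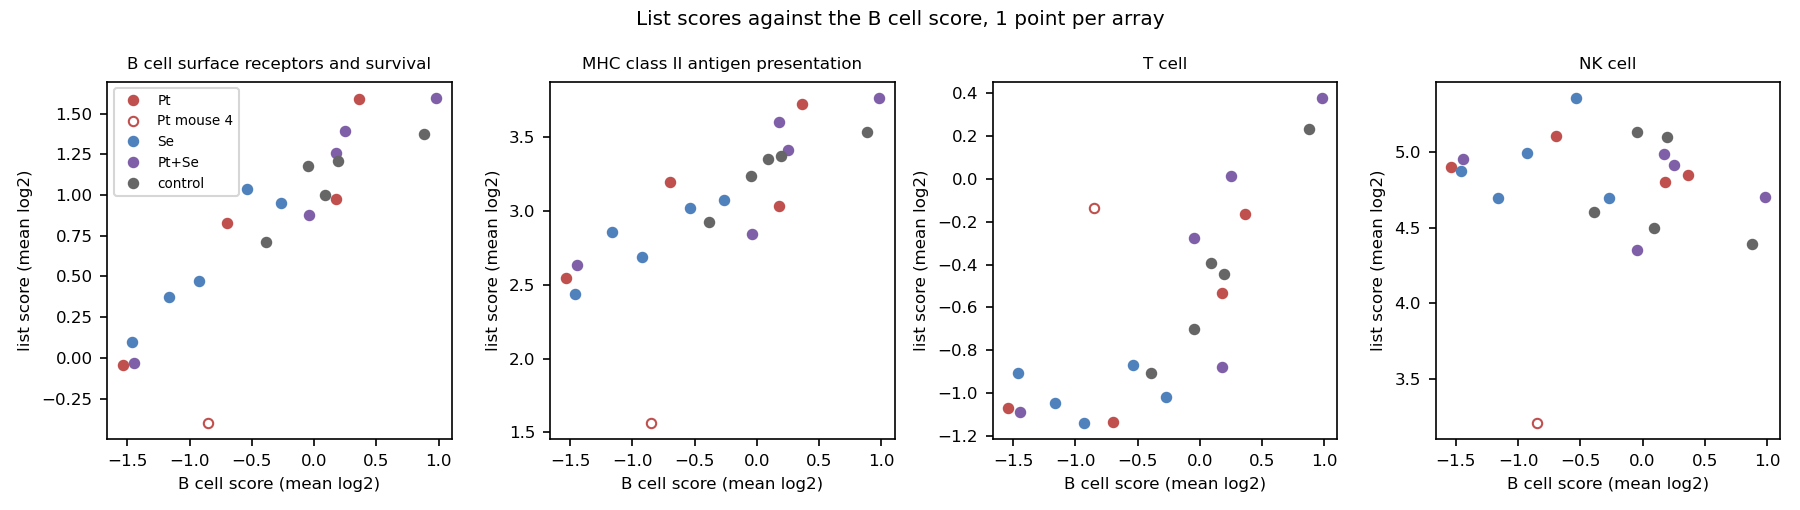
Mean log2 score of 4 gene lists (y) against the B cell score (x), 1 point per array, coloured by group, with the dim array open. Surface receptors, MHC class II genes and T cell markers are higher where the B cell score is higher among the 19 other arrays, at r = 0.945, 0.889 and 0.842, and r is -0.307 for the NK score.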

How the data were processed

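Signals are intensities per spot that the authors deposited as scanner output, made with Agilent Feature Extraction 9.5.3.1 per the submitters' processing notes; the processed signal is background-subtracted and spatially detrended per the file headers and not scaled between arrays. The deposited files also hold columns of unit other, flags for control, outlier and well above background spots, per the file headers. The authors' deposited table holds log2 values per its header, in which 1 control and 1 ptaquiloside array with many outliers were replaced by group means before a t-test at a false discovery rate of 5% and a 2-fold limit; its control columns use decimal commas (unit other, per the file headers). Its values equal log2 processed signal plus a constant, with no centring, and it served only as an alternative, without the columns that are means. Here the signals were put on the log2 scale and each array was set to 0 at the 75th percentile of its non-control spots, with outlier spots left out and the spots of a probe averaged. A probe was tested if 5 or more of the 20 arrays had it well above background, with limma 3.58.1 (R 4.3.3, data.table in version 1.17.8), 1 mean per group, two-sided, with Benjamini-Hochberg adjustment over 25026 probes at 0.05. The fit was tested on simulated data for selenium against control over 24842 probes with the spread of the real ones: of 50 random probes shifted by each log2 size it called 13 at a shift of 1, 37 at 2, 44 at 3 and 48 at 4, and 6 probes with no shift. The simulated noise was normal and independent between probes and arrays, without slide effects or a dim array, so recovery in the real data may differ. Arrays are separate mice per the labels, and their number limits the precision of all values. Mouse number and slide coincide, so a block on either is the same fit. Arrays of the same number correlated in their deviations from group means at -0.343 to 0.688 (median 0.412, above 0.1 in 24 of 30 pairs). The text names all 9 genes on every probe, up to 4 genes of each B cell list with the smallest p over the 4 groups, up to 3 markers of other cells and the 10 genes closest to the score. The members, lists and tests were chosen with earlier results of these data known. A gene that this rule names is not reported here.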

Additional observations from a re-analysis of the deposited data

Results flagged for a closer look

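Within groups of 5 arrays, 44 sets of 5 values were examined for 1 array standing far from the rest, and 3 stood out where chance flags about 1 in 20. For Btk the dim array of ptaquiloside mouse 4 was at -0.78 while the nearest ptaquiloside array was at 0.66, a gap of 0.811 of the group's range. For the second Ebf1 probe, selenium mouse 3 was at -4.80 with the nearest array at -6.19 (0.749 of the range), although the probe was not well above background on any selenium array. For the same probe, mouse 4 given both compounds was at -5.84 with the nearest array at -3.86 (0.731 of the range), and that mouse was also the lowest of its group in the B cell score.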

How the results depend on the processing

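Calls were 0 for the 11 probes under all alternatives run, with a smallest adjusted p of 0.493. Over all probes, limma called 0 in each comparison under each setting, with 1 exception: without mouse 4 given both compounds 1 probe was called in the interaction, AK036773 (2.47, adjusted p = 0.0379), named here after its value was seen, so the range when 1 array is left out was 0 to 1. The methods' t-test, run for the 3 comparisons with control, called 0 at their false discovery rate and fold limits. At an unadjusted p under 0.05 the probes numbered 61 to 1474 for ptaquiloside and 78 to 1373 for selenium against control, 19 to 362 for both compounds against control, 182 to 1539 against ptaquiloside, 39 to 938 against selenium, 87 to 1091 in the interaction and 52 to 946 over the 4 groups. The replicate block, which is the slide, changed no call, and log2 differences stayed as they were where all 20 arrays were kept.

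Of the 66 differences of B cell probes 48 kept their sign in all settings. Selenium against control and both compounds against selenium kept it for every probe. The interaction kept it except for Pax5 with normexp (-0.080). The interaction of the score was 0.75 with normexp and 1.25 to 1.87 when 1 array was left out, and the median correlation of pairs was 0.45 with normexp, 0.62 with quantile normalization, 0.69 with the median as scale and 0.71 without the dim array. For Cd79a with Cd79b r was -0.13 with normexp, 0.32 with the median as scale and 0.83 without the dim array. Each range below covers only the fits that left out 1 array at a time, so values from other settings can lie outside it. Signs turned in ptaquiloside against control for Pax5 with the authors' deposited table (-0.17) and without the dim array (-0.040, and -0.045 with the replicate block as well; range -0.040 to 0.96), for Fcer2a with normexp (0.037; range -0.67 to 0.16) and for Cd79a with the median (-0.14), normexp (-0.016), the deposited table (-0.51) and the replicate block without the dim array (-0.41; range -0.40 to 0.34). In both compounds against control they turned for Pax5 with the median (-0.025), quantile normalization (-0.044), normexp (-0.078) and the deposited table (-0.23; range -0.20 to 0.24), Fcer2a with normexp (0.045; range -0.46 to 0.35) and Cd79a with normexp (-0.010) and the deposited table (-0.074; range -0.098 to 0.36). Leaving out 1 array also turned, there, Btk (-0.22 to 0.051), Fcrla (-0.52 to 0.27), Cd79b (-0.66 to 0.075), the Ebf1 probes (-0.67 to 0.28 and -0.33 to 0.35) and the Ms4a1 probes (-0.46 to 0.28 and -0.39 to 0.36), with the highest value in each case without mouse 4 given both compounds. In both compounds against ptaquiloside they turned for Pax5 without the dim array (0.061, and 0.066 with the replicate block as well; range -0.94 to 0.061), the second Ebf1 probe with normexp (-0.026), Cd79a with quantile normalization (-0.045; range -0.19 to 0.55) and Fcer2a (range -0.33 to 0.74). Only 5 of the 11 probes were well above background on all 20 arrays, so that setting gave values for those alone. The cause of these turns was not tested. Signal near background limits Pax5 and the second Ebf1 probe.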
